A study of Mus musculus with 12 samples.

Results

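The amino acid transporters described here are the plasma membrane and lysosomal carriers of 7 solute carrier families, SLC1, SLC3, SLC6, SLC7, SLC36, SLC38 and SLC43. A gene was included when its single annotated symbol began with one of these family names, and Slc6a20a and Slc6a20b were kept apart because they lie near the deleted gene on chromosome 9. This gave 62 of the 19936 genes on the array, each represented by its probe set with the highest mean. The set by name also holds creatine, taurine, monoamine and purine carriers, the glycoprotein heavy chains Slc3a1 and Slc3a2, and the 2 opposite-strand genes Slc6a19os and Slc7a6os, without which 60 genes remain.

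Whole kidneys of FVB-strain mice were profiled at 6 months of age, with 1 array per mouse and 3 mice in each of 4 groups. OVE-D6 mice were diabetic and homozygous for a deletion of D6 (Ackr2), OVE mice were diabetic with wild-type D6, D6 mice were non-diabetic with the same homozygous deletion, and FVB mice were non-diabetic with wild-type D6. Diabetes came from the OVE26 transgene, which expresses calmodulin in pancreatic beta cells and so models early beta cell failure without autoimmunity or obesity. D6 is an atypical receptor that takes up inflammatory CC chemokines without signalling. The deletion was made in C57BL/6 mice and bred for at least 10 generations to FVB before the cross to OVE, so both knockout groups carry donor sequence beside Ackr2. The probe set of Ackr2 itself did not follow the genotype: it lay at 6.98, 6.91 and 6.88 in OVE-D6, 6.81, 6.83 and 7.04 in OVE, 6.74, 6.75 and 6.92 in D6 and 6.97, 6.91 and 6.83 in FVB. Where its probes lie relative to the deleted part is not given in the sources used here, so these values do not check the genotype labels. The labels do not give sex or litter. Xist lay between 12.53 and 12.87 and the Y-linked genes Uty, Eif2s3y and Kdm5d between 3.55 and 5.33 on all 12 arrays, the pattern of female kidneys.

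The proximal tubule reclaims nearly all filtered amino acids. Carriers of the brush border, such as the cystinuria pair Slc3a1 and Slc7a9 and the neutral amino acid carrier Slc6a19, take amino acids up with sodium or proton gradients or by exchange, and basolateral exchangers and uniporters built on Slc3a2 or of the SLC43 family release them to the blood. The basolateral glutamine carrier Slc38a3 works in the inward direction in late proximal cells and supplies glutamine for the making of ammonia and glucose.

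The test covered 59 of the 62 genes, those whose value exceeded the 25th percentile of an array on 3 or more arrays; Slc7a15, Slc6a14 and Slc7a11 were too dim. The 1027 olfactory receptor genes on the array, which kidney transcribes little, had a 95th percentile of 5.93 (log2 intensity). In 48 transporter genes all 4 group means lay above this level, in 12 none did, and in Slc38a8 and Slc7a13 some did. The brush border genes Slc3a1 (13.05 over 12 arrays), Slc6a18 (12.47) and Slc6a19 (11.80), and Slc7a12 (12.56), were all far above it. The kidney label also held for the 10 proximal tubule markers, whose mean per array lay between 12.35 and 12.69. Of the 6 nerve transporter genes, Slc6a2 (5.43) and Slc6a5 (5.37) lay below the olfactory level. The dopamine transporter gene Slc6a3 (6.19) and Slc6a7 (6.12) lay close to it, and Slc6a4 (8.17) and Slc6a9 (9.04) well above it. Levels of different genes come from different probes and are not ranked here.

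**Figure D1:**
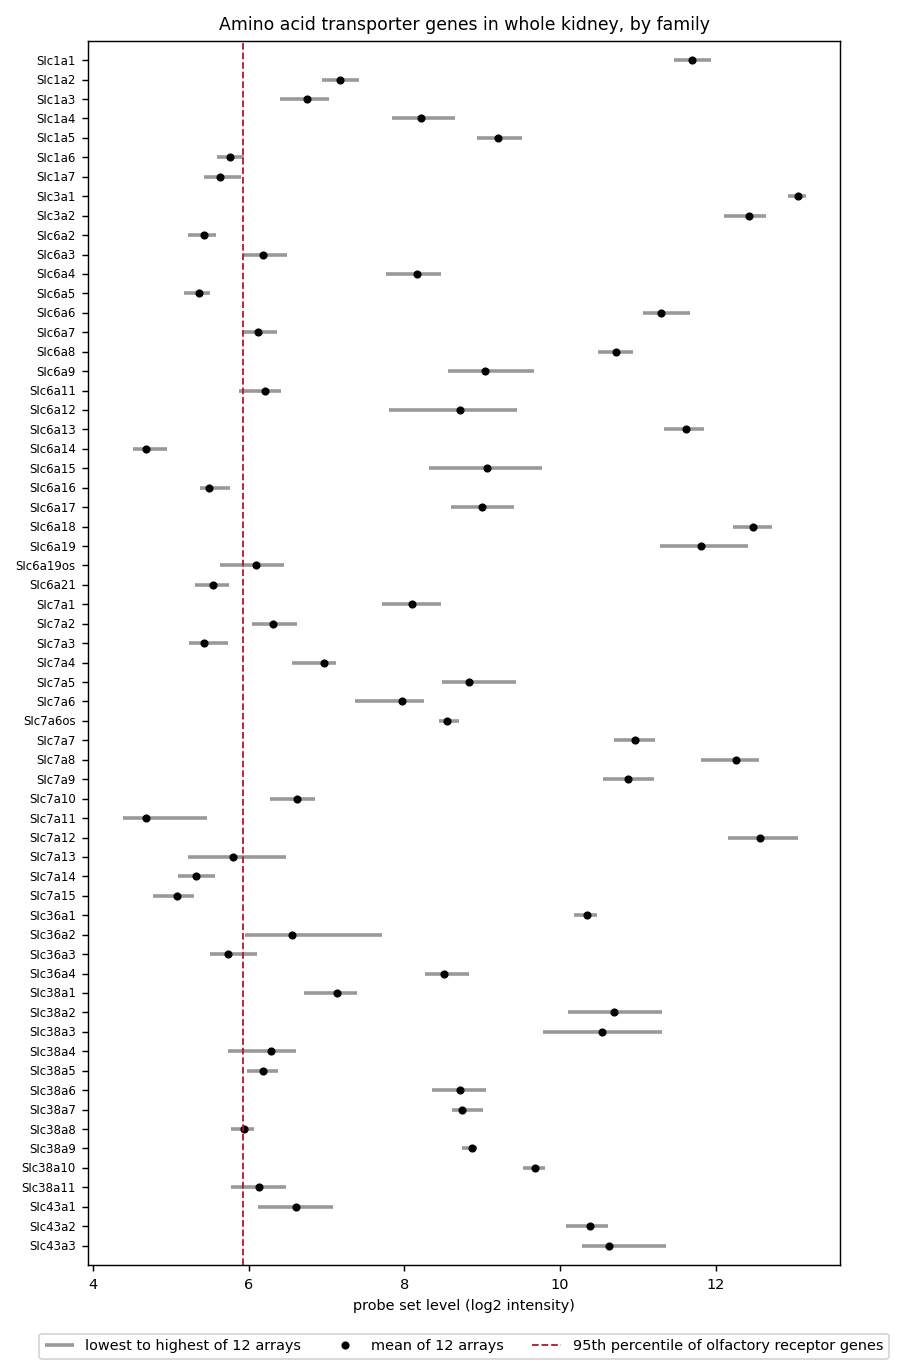
Level of each of the 62 transporter genes (log2 intensity, x axis), listed by family from top to bottom, as the mean (point) and the lowest to highest of 12 arrays (line), with the dashed line at 5.93, the 95th percentile of olfactory receptor genes. Most genes lie to the right of the dashed line, and Slc7a11, Slc6a14 and Slc7a15 lie to its left on all 12 arrays.

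Array medians lay between 6.84 and 6.93. On the first principal component of all tested genes (35.9% of the variance) the OVE arrays lay at 27.03, 29.37 and 6.95 and the other 9 arrays between -15.13 and 5.17, so OVE replicate 3 stood apart from the other OVE arrays. On the first component of the transporter genes alone (38.4% of their variance) the OVE-D6 arrays lay at 0.76, 0.33 and 1.14, the OVE arrays at 1.56, 1.26 and 0.89, the D6 arrays at -0.77, -1.48 and -0.54 and the FVB arrays at -0.75, -0.98 and -1.43. The 6 diabetic arrays were therefore all above the 6 non-diabetic arrays on it. The mean of 10 macrophage and monocyte markers lay between 7.61 and 7.87 on OVE-D6 arrays, 8.15 and 9.19 on OVE arrays, 7.69 and 7.98 on D6 arrays and 7.36 and 7.65 on FVB arrays. The mean of 6 tubular injury markers lay between 6.73 and 7.47 on OVE-D6 arrays, 8.18 and 9.42 on OVE arrays, 6.72 and 6.92 on D6 arrays and 6.58 and 6.79 on FVB arrays. The mean of 4 adrenal markers was 8.65 on OVE-D6 replicate 3 and between 5.52 and 5.81 on the other 11 arrays.

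Diabetes with intact D6 was compared first, as OVE against FVB. Among the 59 tested transporter genes 4 rose and 4 fell at a Benjamini-Hochberg adjusted p under 0.05 in limma, which is 13.6%, beside 7.28% of all 16480 tested genes (4.90% higher and 2.38% lower). The genes that rose were the glutamine carrier Slc38a3, its family member Slc38a6, the exchanger gene Slc7a6 and the proton-coupled carrier gene Slc36a4. The genes that fell were Slc7a12 and Slc7a13, both known mainly from the kidney, the serotonin transporter gene Slc6a4 and the branched-chain amino acid carrier gene Slc6a15. The median log2 difference was 0.02 over the 59 genes and -0.02 over all tested genes. It was -0.01 without FVB replicate 1, 0.08 without FVB replicate 2 and 0.15 over the 37 genes left by a filter at the 50th percentile. The 3 OVE and 3 FVB arrays did not overlap in 18 transporter genes, a share of 30.5% beside 27.1% of all tested genes. Of these, 11 were higher in OVE, beside 13.6% of all tested genes, and 7 lower, beside 13.5%. At an unadjusted p under 0.05 the comparison held 16 transporter genes, 27.1% beside 24.1%. All array values are of whole kidney, in which fewer cells of a type and less RNA per cell cannot be told apart.

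Slc38a3 encodes the sodium-coupled glutamine transporter SNAT3, whose kidney transcript is known to rise in metabolic acidosis. Its level was 11.00, 11.11 and 11.12 on OVE-D6 arrays, 11.15, 11.31 and 11.01 on OVE arrays, 9.78, 9.83 and 10.08 on D6 arrays and 10.12, 10.07 and 9.83 on FVB arrays. Every diabetic array was higher than every non-diabetic array, with no overlap and a gap wider than the spread within any group. The gene rose 2.22-fold in OVE against FVB (log2 1.15 ± 0.11, SE, n = 3 per group, limma adjusted p = 0.000393) and 2.26-fold in OVE-D6 against D6 (log2 1.18 ± 0.11, adjusted p = 0.00147). The difference between these 2 effects was 0.03 on the log2 scale (95% confidence interval -0.31 to 0.36). Slc38a3 lies on chromosome 9 like Ackr2, with 191 protein-coding genes between them, and its differences by genotype were -0.08 in OVE-D6 against OVE and -0.11 in D6 against FVB. It was the one transporter gene called in OVE-D6 against D6, a comparison that called 0.285% of all tested genes.

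Slc38a6 is a member of the same family with a less settled substrate. Its level was 8.92, 9.05 and 8.79 in OVE, against 8.57, 8.36 and 8.55 in FVB, a 1.34-fold rise (log2 0.42 ± 0.11, limma adjusted p = 0.0450). In OVE-D6 it was 8.86, 8.85 and 8.94, against 8.49, 8.38 and 8.84 in D6 (log2 0.31 ± 0.11, adjusted p = 0.356). The diabetic and non-diabetic arrays did not overlap within either genotype, although D6 replicate 3 came close to the lowest OVE-D6 array.

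Slc7a6 encodes y+LAT2, which pairs with the heavy chain Slc3a2 and exchanges cationic for neutral amino acids. It stood at 8.20, 8.25 and 8.26 in OVE, against 7.93, 7.85 and 7.36 in FVB, and rose 1.44-fold (log2 0.52 ± 0.13, limma adjusted p = 0.0369). FVB replicate 3 was the lowest of the 12 arrays. In OVE-D6 the values were 8.07, 8.07 and 8.16, against 7.98, 7.60 and 7.90 in D6 (log2 0.27, adjusted p = 0.547). The neighbouring opposite-strand gene Slc7a6os had a log2 difference of -0.08 in OVE against FVB.

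Slc36a4 encodes a high-affinity carrier of proline and tryptophan. Its values were 8.83, 8.67 and 8.62 in OVE, against 8.51, 8.44 and 8.27 in FVB, a 1.23-fold rise (log2 0.30 ± 0.08, limma adjusted p = 0.0492). They were 8.63, 8.47 and 8.57 in OVE-D6, against 8.36, 8.43 and 8.38 in D6 (log2 0.16, adjusted p = 0.559). The groups did not overlap in either genotype.

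These 3 smaller rises lay near the threshold, and single arrays ended them. For Slc7a6 the adjusted p was above 0.05 without FVB replicate 2 (0.0586) or 3 (0.104), OVE replicate 1 (0.0745), 2 (0.106) or 3 (0.0544), or OVE-D6 replicate 1 or 2 (both 0.0513). For Slc38a6 it passed only without D6 replicate 2 (0.0388), D6 replicate 3 (0.0199) or OVE replicate 3 (0.0274), and was at most 0.151 without any of the other 9 arrays. For Slc36a4 it passed only without OVE replicate 3 (0.0336), and reached 0.174 without FVB replicate 3. The log2 difference of Slc38a3 lay between 1.06 and 1.22 whichever array was left out, with an adjusted p of at most 0.00271, and in OVE-D6 against D6 between 1.12 and 1.27, with an adjusted p of at most 0.0141.

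**Figure D2:**
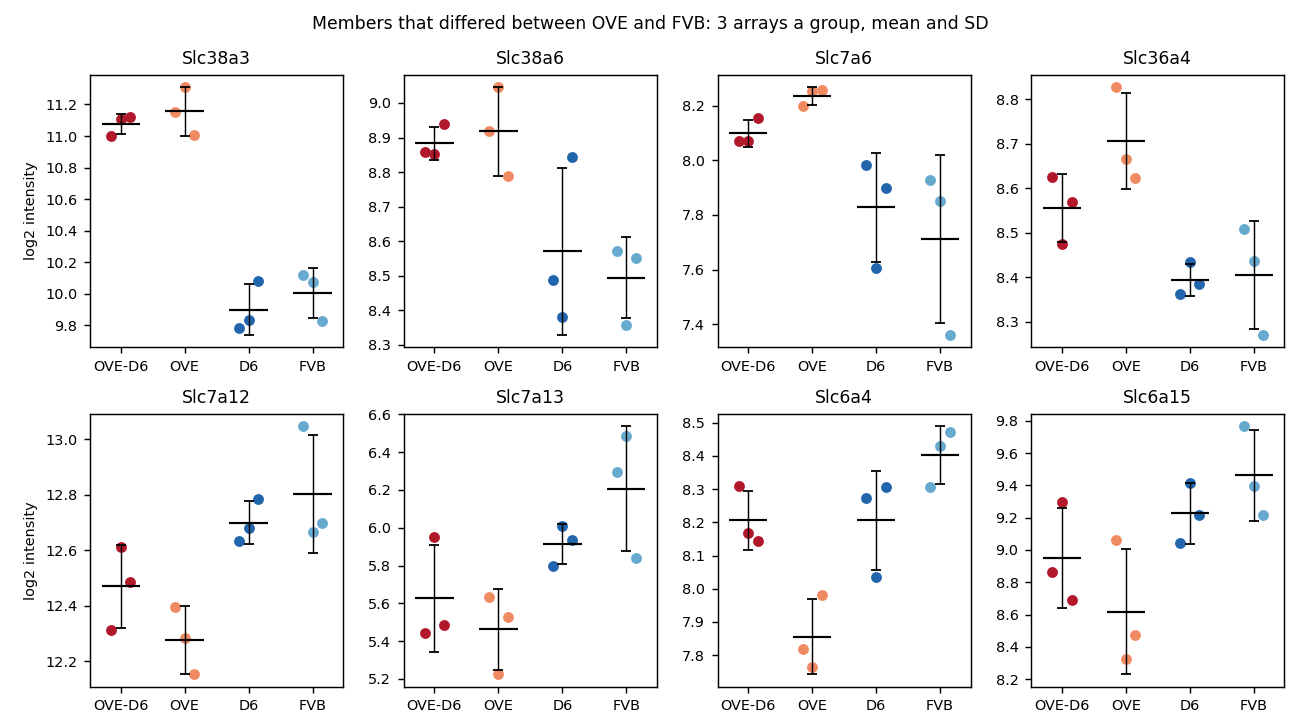
Level (log2 intensity, y axis) of the 8 transporter genes that passed the test in OVE against FVB, for OVE-D6, OVE, D6 and FVB from left to right, with each array as a point, the group mean as a bar and the SD as whiskers (n = 3). Slc38a3 separates the 6 diabetic from the 6 non-diabetic arrays by far more than the spread within groups. For Slc6a4 the 3 OVE arrays are the lowest.

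Slc7a12 is a kidney-expressed SLC7 gene with an unsettled substrate, and Slc7a13 encodes a carrier of aspartate, glutamate and cystine that pairs with Slc3a1 in the late proximal tubule; both transcripts are known to differ between male and female mice. Slc7a12 had levels of 12.39, 12.28 and 12.15 in OVE, against 13.05, 12.66 and 12.70 in FVB, and fell by 0.53 ± 0.11 in log2 (FVB 1.44-fold over OVE, limma adjusted p = 0.0181). It stood at 12.31, 12.61 and 12.49 in OVE-D6, against 12.63, 12.68 and 12.79 in D6 (log2 -0.23, adjusted p = 0.542). The diabetic arrays were below the non-diabetic arrays without overlap in both genotypes. Slc7a13 had levels of 5.63, 5.22 and 5.53 in OVE, against 6.30, 6.48 and 5.84 in FVB (log2 -0.75 ± 0.17, adjusted p = 0.0237). All 3 OVE values lay below the olfactory level of 5.93, so the size of this fall is poorly measured. Slc7a13 stood at 5.44, 5.95 and 5.48 in OVE-D6, against 5.80, 6.01 and 5.93 in D6 (log2 -0.29, adjusted p = 0.633). The Slc7a12 call ended without FVB replicate 1 (adjusted p = 0.0549) or OVE replicate 2 (0.0625), and the Slc7a13 call without FVB replicate 1 (0.0707), FVB replicate 2 (0.0910) or OVE replicate 2 (0.0975).

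The mean of the proximal tubule markers lay between 12.49 and 12.59 on OVE-D6 arrays, 12.35 and 12.56 on OVE arrays, 12.56 and 12.69 on D6 arrays and 12.56 and 12.64 on FVB arrays. In OVE against FVB 1 of the 10 fell, the albumin receptor gene Lrp2, beside 2.38% of all tested genes. Their median was -0.21 on the log2 scale, beside -0.02 over all tested genes. Of 10 markers of the loop, distal tubule and collecting duct 3 fell, with a median of -0.26. Of 3 podocyte markers 1 fell (median -0.24), and of 4 endothelial markers none did (median 0.05). The part of fewer proximal tubule cells in the lower values of Slc7a12 and Slc7a13 was not tested.

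Slc6a4, the serotonin transporter gene, showed another pattern. Its level was 8.31, 8.17 and 8.14 in OVE-D6, 7.82, 7.76 and 7.98 in OVE, 8.27, 8.04 and 8.31 in D6 and 8.31, 8.43 and 8.47 in FVB. The OVE arrays were the lowest 3 of the 12. In OVE against FVB the log2 level of Slc6a4 fell by 0.55 ± 0.09 (FVB 1.46-fold over OVE, limma adjusted p = 0.00705) and passed the test whichever array was left out. In OVE-D6 against D6 its log2 difference was 0.00 (95% confidence interval -0.20 to 0.20). The test of the difference between these effects gave 0.55 ± 0.13 with an unadjusted p of 0.00126 and an adjusted p of 0.225, which did not pass. Without OVE replicate 3 this difference was 0.61 with an adjusted p of 0.0347. The log2 difference of Slc6a4 without diabetes, in D6 against FVB, was -0.20 ± 0.09 (limma adjusted p = 0.9995).

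Slc6a15, a sodium-coupled carrier of branched-chain amino acids and proline known mainly from brain, had levels of 9.06, 8.32 and 8.47 in OVE, against 9.77, 9.40 and 9.22 in FVB. It fell by 0.84 ± 0.21 in log2 (FVB 1.79-fold over OVE, limma adjusted p = 0.0297). It stood at 8.87, 9.29 and 8.69 in OVE-D6, against 9.04, 9.42 and 9.22 in D6, groups that overlapped (log2 -0.28, adjusted p = 0.720). Its call ended without FVB replicate 1 (0.0964) or 2 (0.0724) or OVE replicate 2 (0.117) or 3 (0.0544).

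The luminal uptake list held 9 genes, and none of them passed the limma test in OVE against FVB, where their median log2 difference was -0.01. The cystine and dibasic amino acid carrier had a log2 difference of -0.03 ± 0.08 in its heavy chain Slc3a1 and -0.13 ± 0.11 in its light chain Slc7a9. Slc6a18, a glycine and neutral amino acid carrier, differed by -0.01 ± 0.11, the proton-coupled Slc36a1 by -0.01 ± 0.08, and the neutral amino acid carrier Slc6a19, the gene of Hartnup disorder, by 0.08 ± 0.22. The glutamate carrier Slc1a1 (0.15 ± 0.10), the taurine carrier Slc6a6 (0.19 ± 0.12) and the creatine carrier Slc6a8 (0.15 ± 0.12) did not pass. The 95% confidence interval of the difference was -0.20 to 0.14 for Slc3a1 and -0.19 to 0.16 for Slc36a1. None of the 9 passed in OVE-D6 against D6 either. There 8 of the 9 had a difference above 0, and the list's median was 0.11, beside -0.01 over all tested genes.

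Slc36a2, the proline and glycine carrier of the same list, is also known as a surface marker of fat cells. It stood at 6.61, 6.48 and 6.35 in OVE, against 5.96, 7.72 and 7.00 in FVB (log2 -0.41 ± 0.32, limma adjusted p = 0.466). The mean of 4 fat markers was 7.21, 6.88 and 7.40 on the OVE arrays, against 6.41, 7.80 and 7.29 on the FVB arrays, and FVB replicate 2 was highest in both. The part of adhering fat in the Slc36a2 values was not tested. Without FVB replicate 1 the log2 difference was -0.88 with an adjusted p of 0.0430.

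The basolateral list held 8 genes, of which 2 rose in OVE against FVB, Slc38a3 and Slc7a6, and none fell. Over all tested genes 4.90% rose and 2.38% fell. All 8 had a log2 difference above 0, with a median of 0.22 beside -0.02 over all tested genes. The shared heavy chain Slc3a2 was at 12.39, 12.36 and 12.64 in OVE, against 12.10, 12.22 and 12.35 in FVB (log2 0.24 ± 0.09, limma adjusted p = 0.143), with OVE replicates 1 and 2 just above the highest FVB array. The exchanger light chain Slc7a7, the gene of lysinuric protein intolerance, differed by 0.19 ± 0.10, the neutral amino acid exchanger Slc7a8 by 0.10 ± 0.14, the uniporters Slc43a1 by 0.30 ± 0.17 and Slc43a2 by 0.19 ± 0.11, and the small neutral amino acid exchanger Slc7a10 by 0.08 ± 0.14. None of these passed. In OVE-D6 against D6 Slc38a3 alone rose, and the list's median was 0.15. In D6 against FVB, without diabetes, 6 of the 8 had a difference above 0 and the median was 0.16. That comparison and OVE against FVB both use the FVB arrays.

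**Figure D3:**
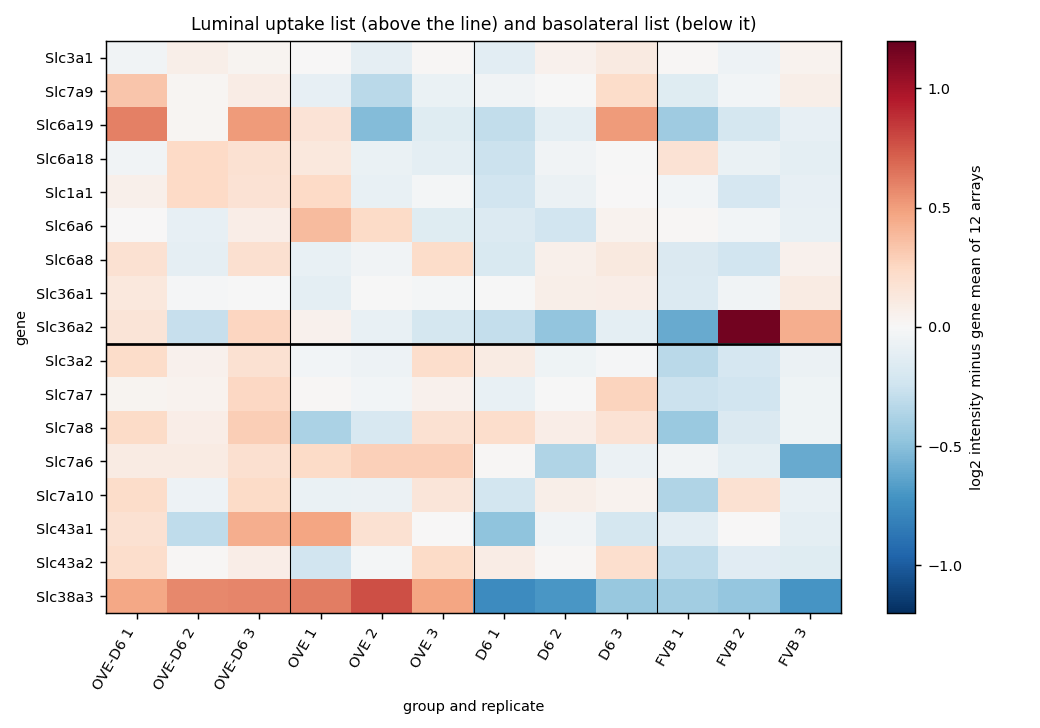
Level of each gene of the luminal uptake list (above the line) and the basolateral list (below it) in each array, as log2 intensity minus that gene's mean over 12 arrays (colour, red higher), with OVE-D6, OVE, D6 and FVB arrays from left to right. Slc38a3 is red on all 6 diabetic arrays and blue on all 6 non-diabetic arrays, and no other gene of either list shows this full split. Slc7a6 was higher on every diabetic array (8.07 to 8.26) than on any non-diabetic array (7.36 to 7.98).

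Carriers that growing or stressed cells induce formed a list of 9 genes, 8 of them tested. None passed in OVE against FVB, all 8 had a difference above 0, and their median log2 difference was 0.28. In OVE-D6 against OVE 1 of the 8 had a difference above 0 and the median was -0.20; both comparisons use the OVE arrays. Slc7a5, the large neutral amino acid exchanger LAT1 that feeds mTORC1 signalling, was at 9.05, 8.73 and 8.69 in OVE-D6, 9.43, 9.05 and 8.85 in OVE, 8.89, 8.71 and 8.72 in D6 and 8.75, 8.59 and 8.49 in FVB. OVE replicate 1 was the highest, and OVE and FVB did not overlap. Its difference in OVE against FVB was 0.50 ± 0.14 with an adjusted p of 0.0509, just outside the threshold, and without OVE replicate 3 it was 0.63 with an adjusted p of 0.0129. Without OVE-D6 replicate 1 the same difference of 0.50 had an adjusted p of 0.0475. No other array left out brought it past the threshold. With all arrays kept it passed with array weights (adjusted p = 0.0353), with a trended and robust variance (0.0411) and with the filter at the 50th percentile (0.0439). It also passed with the replicate number as a block (0.0117). It did not pass without the filter, with quantile normalisation, with the mean of all probe sets per gene or with only OVE and FVB fitted.

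Slc7a1, the main cationic amino acid carrier CAT1, was at 7.99, 7.89 and 8.30 in OVE-D6, 8.36, 8.46 and 8.33 in OVE, 8.28, 7.97 and 7.71 in D6 and 7.88, 8.17 and 7.88 in FVB. The OVE arrays were the highest 3 of the 12 (log2 0.41 ± 0.14 in OVE against FVB, limma adjusted p = 0.101). Slc38a1, a glutamine carrier, was at 6.71, 7.04 and 6.98 in OVE-D6, 7.39, 7.39 and 7.34 in OVE, 7.33, 7.20 and 7.01 in D6 and 7.25, 7.15 and 6.85 in FVB. Here too OVE was highest, while OVE-D6 was the lowest group. Its difference in OVE-D6 against OVE was -0.46 ± 0.12 (adjusted p = 0.132). Outside this list, Slc43a3, known in human cells as a purine nucleobase carrier, differed by 0.53 ± 0.16 in OVE against FVB (adjusted p = 0.0587), and by 0.70 without OVE replicate 3 (adjusted p = 0.00842). The other 5 tested genes of the growth and stress list, Slc1a4, Slc1a5, Slc38a2, Slc7a2 and Slc7a3, differed by 0.07 to 0.31 on the log2 scale and did not pass.

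Of the marker genes, 9 of the 10 macrophage and monocyte markers and 5 of the 6 tubular injury markers rose in OVE against FVB. Over all tested genes 4.90% rose. In OVE-D6 against OVE 3 and 2 of these markers fell, in a comparison that called 0.231% of all tested genes. All 10 macrophage genes had a mean difference above 0 in OVE against FVB. Macrophages are known to make Slc7a1 and Slc7a11 among others, and the part of infiltrating cells in the transporter values was not tested.

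Slc7a11, the cystine and glutamate exchanger xCT that feeds glutathione synthesis, was below the filter. It was listed at 4.38, 4.63 and 4.60 in OVE-D6, 5.35, 5.47 and 4.76 in OVE, 4.64, 4.45 and 4.48 in D6 and 4.58, 4.51 and 4.39 in FVB. All of these lay below the olfactory level, with the 3 OVE arrays highest. Fitted without the filter, it rose in OVE against FVB by 0.70 ± 0.15 on the log2 scale (adjusted p = 0.0210), and in OVE-D6 against OVE its difference was -0.65 (adjusted p = 0.106).

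**Figure D4:**
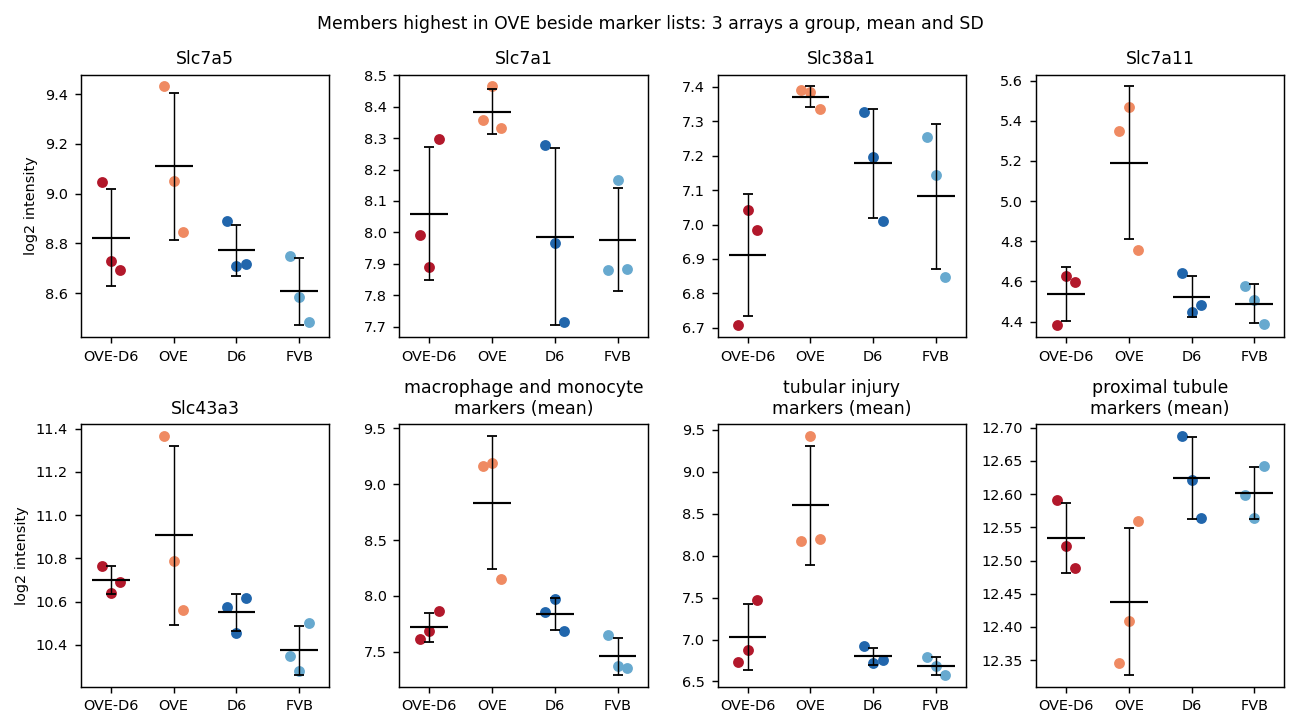
Level (log2 intensity, y axis) of 5 transporter genes and mean level of 3 marker lists in OVE-D6, OVE, D6 and FVB kidneys from left to right, with each array as a point, the mean as a bar and the SD as whiskers (n = 3). Slc7a1, Slc38a1 and Slc7a11 are highest on the 3 OVE arrays, as are the macrophage and tubular injury marker means. The 5 genes were picked for their high level in OVE, so this likeness to the marker lists is not a test.

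Shortage of amino acids and other stresses activate the factor ATF4, which induces genes of amino acid synthesis and uptake through an amino acid response element. Of 15 amino acid response genes 3 rose in OVE against FVB, the asparagine synthetase gene Asns (log2 0.79 ± 0.15, limma adjusted p = 0.0107), the mitochondrial folate enzyme gene Mthfd2 (0.73) and the serine synthesis gene Psat1 (0.52), and 1 fell, the lipoprotein receptor gene Vldlr (-0.36). In that comparison 4.90% of all tested genes rose and 2.38% fell. None of the 15 passed in OVE-D6 against D6 or in OVE-D6 against OVE. The 250 bases upstream of the start of Asns and Slc7a11 are shown because both hold the core of that element, Asns as the response gene with the largest rise of the 3 that passed and Slc7a11 as a transporter gene. The core was searched as TGATGNAA on both strands and is in capitals, in sequences from RefSeq (GRCm38.p6). Asns lies at chr6:7693210-7693459 on the minus strand and Slc7a11 at chr3:50443614-50443863 on the minus strand, each written 5′ to 3′ along the gene.
Asns: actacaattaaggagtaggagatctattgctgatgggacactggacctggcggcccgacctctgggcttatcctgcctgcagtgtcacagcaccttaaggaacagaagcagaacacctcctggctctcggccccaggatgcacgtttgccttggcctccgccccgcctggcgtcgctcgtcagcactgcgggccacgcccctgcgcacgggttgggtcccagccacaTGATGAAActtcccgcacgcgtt
Slc7a11: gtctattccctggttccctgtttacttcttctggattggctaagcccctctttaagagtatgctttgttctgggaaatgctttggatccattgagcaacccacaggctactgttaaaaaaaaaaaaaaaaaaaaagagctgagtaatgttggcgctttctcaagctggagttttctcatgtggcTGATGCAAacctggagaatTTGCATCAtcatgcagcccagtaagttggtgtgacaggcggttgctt
The match begins at -23 in Asns, and Slc7a11 has 2 matches, at -66 and -47 from its start. The core occurs in 3.45% of the 32851 promoters of the same length. It was present in 4 of the 66 promoters of transporter genes. These belong to Slc6a21, Slc7a11 and Slc7a7, 3 of the 45 transporter genes with a promoter entry. Of the 14 amino acid response genes with an entry, 5 held it (Asns, Atf3, Chac1, Nupr1 and Vldlr). A gene can have several promoters, so counts of genes do not compare directly with the 3.45%. Vldlr is among the 5 that hold the core, and Mthfd2 and Psat1 are not. Since only 14 of the 15 have an entry, a gene outside the 5 can lack an entry rather than the core. Of the 8 transporter genes called in OVE against FVB, 4 had an entry (Slc36a4, Slc38a6, Slc6a4 and Slc7a6), and the core was in none of these windows.

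Among osmolyte and GABA carriers, which kidney cells use against high tonicity, none of the 5 tested genes passed the limma test. The betaine carrier gene Slc6a12 was at 8.87, 9.14 and 9.14 in OVE-D6, against 8.71, 7.81 and 8.44 in D6, and did not overlap (log2 0.73 ± 0.32, adjusted p = 0.471). In OVE it was 9.15, 8.26 and 9.45, against 8.99, 8.65 and 7.91 in FVB, where the groups overlapped (0.44 ± 0.32, adjusted p = 0.443). The taurine and GABA carrier gene Slc6a13 differed by 0.25 ± 0.11 in OVE against FVB and by 0.22 ± 0.11 in OVE-D6 against D6. The brain GABA carrier gene Slc6a11 differed by -0.16 ± 0.10 in OVE against FVB. None of the 5 glutamate carriers of SLC1 passed in either comparison: besides Slc1a1, the differences in OVE against FVB were -0.08 ± 0.11 for Slc1a2, 0.15 ± 0.14 for Slc1a3, -0.05 ± 0.09 for Slc1a6 and -0.24 ± 0.10 for Slc1a7.

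Of 6 lysosomal and intracellular carriers 1 rose in OVE against FVB, Slc36a4, where 4.90% of all tested genes rose and 2.38% fell. The lysosomal arginine sensor gene Slc38a9, which signals to mTORC1, differed by -0.04 ± 0.07, the lysosomal glutamine and asparagine carrier gene Slc38a7 by 0.02 ± 0.10, Slc38a10 by -0.03 ± 0.08 and the lysosomal Slc7a14 by -0.02 ± 0.12. Among 6 monoamine, glycine and proline carriers of nerve tissue Slc6a4 fell, and the glycine carrier gene Slc6a9 differed by 0.35 ± 0.22 (adjusted p = 0.366), while the proline carrier gene Slc6a7 differed by -0.21 ± 0.10 (adjusted p = 0.235).

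Genes that serve the same amino acids outside the 7 families were counted as well. Of 9 partners and other carriers 1 rose in OVE against FVB, the mitochondrial glutamate carrier gene Slc25a22 (log2 0.38 ± 0.09, limma adjusted p = 0.0305). Of 18 renal enzymes of amino acid metabolism 1 rose, the proline dehydrogenase gene Prodh (0.38), and 1 fell, the tyrosine-degrading enzyme gene Hpd (-0.95). Over all tested genes 4.90% rose and 2.38% fell. Glud1 and Pck1, enzymes on the way from glutamine to ammonia and glucose that are named here after their values were seen, differed by 0.16 ± 0.07 (adjusted p = 0.179) and 0.01 ± 0.10 (adjusted p = 0.954).

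In diabetic kidneys without D6, the comparison of OVE-D6 with D6 called 1 of 59 transporter genes, Slc38a3. The arrays did not overlap in 12 genes, 20.3% beside 16.4% of all tested genes. An unadjusted p under 0.05 was found in 6 genes, 10.2% beside 9.98% of all tested genes. Averaged over both genotypes, the diabetes effect called the same 8 genes as OVE against FVB, 4 higher and 4 lower, or 13.6% beside 7.65% of all tested genes (4.49% higher and 3.16% lower). An unadjusted p under 0.05 was found in 19, which is 32.2% beside 24.0%. Since the averaged effect includes the OVE and FVB arrays, these are not separate evidence. In that average Slc38a3 rose by 1.16 ± 0.08 on the log2 scale (limma adjusted p = 1.89e-05), and Slc6a15 fell by 0.56 ± 0.15 (adjusted p = 0.0372). The averaged calls of Slc38a3 and Slc7a12 (-0.38 ± 0.08) held whichever array was left out. That of Slc38a6 (0.37 ± 0.08) ended only without OVE-D6 replicate 3 (adjusted p = 0.0507). Single arrays also ended the averaged calls of Slc7a6, Slc36a4, Slc7a13, Slc6a15 and Slc6a4. For Slc6a4 the difference in OVE-D6 against D6 was 0.00.

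**Figure D5:**
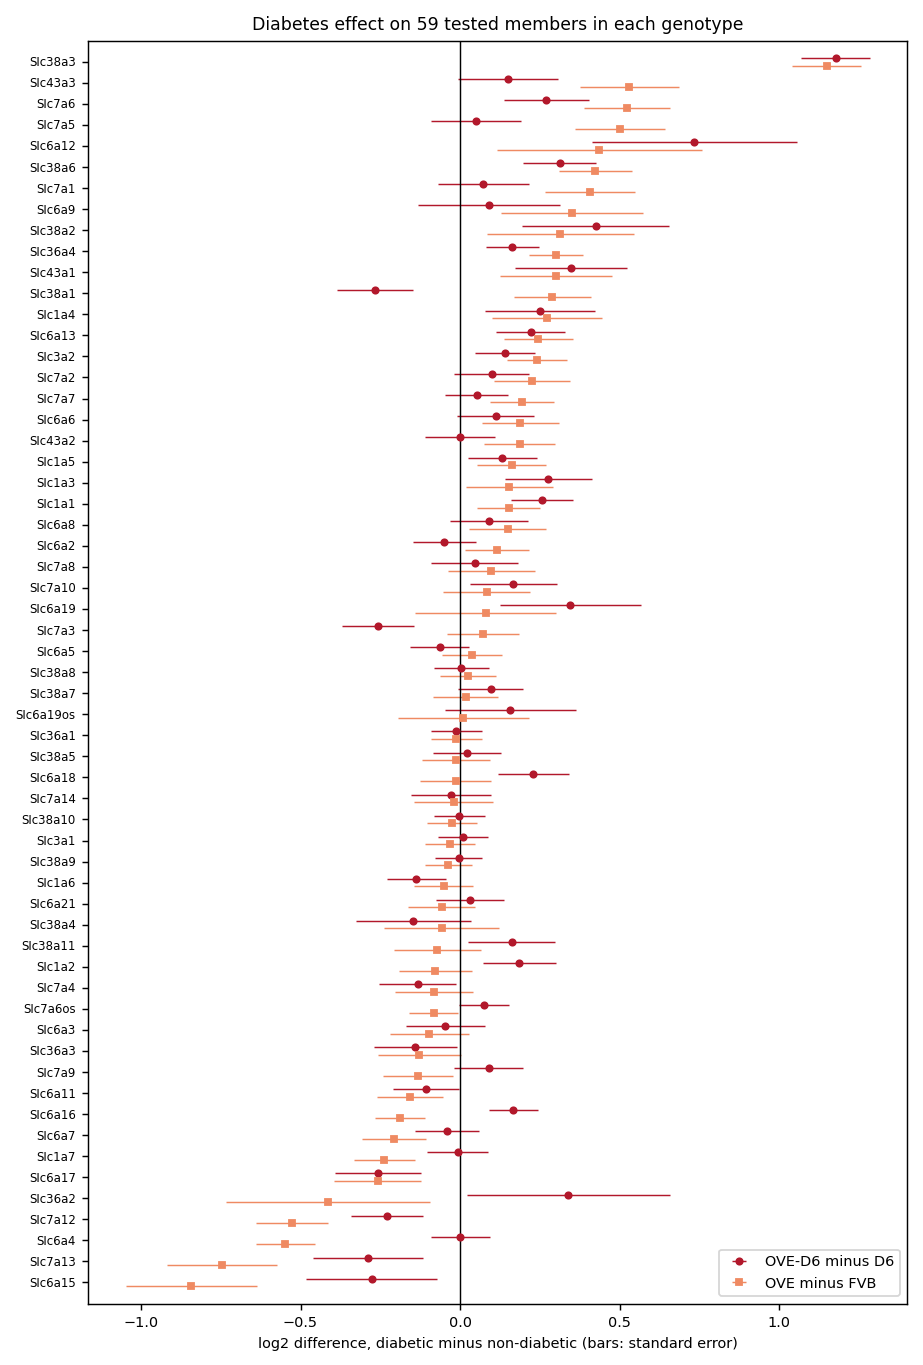
Diabetes effect (log2 difference, x axis, with standard error bars) on each of the 59 tested transporter genes, for OVE-D6 minus D6 (red circles) and OVE minus FVB (orange squares), in the order of the OVE minus FVB value. Slc38a3 lies near 1.2 in both genotypes, and Slc6a4 lies at -0.55 for OVE minus FVB and at 0.00 for OVE-D6 minus D6.

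The effect of D6 loss in diabetic kidneys was asked by OVE-D6 against OVE. None of the 59 transporter genes passed the limma test, beside 0.231% of all tested genes, and 7 had an unadjusted p under 0.05, which is 11.9% beside 14.8% of all tested genes. The 2 groups did not overlap in 11 genes, 18.6% beside 17.6%. Among the brush border genes Slc7a9 was at 11.21, 10.90 and 10.96 in OVE-D6, against 10.78, 10.55 and 10.80 in OVE (log2 0.32 ± 0.11, adjusted p = 0.215). Slc6a19 was at 12.41, 11.82 and 12.31 in OVE-D6, against 11.97, 11.28 and 11.66 in OVE (0.55 ± 0.22, adjusted p = 0.277). Slc7a9 did not overlap between the groups, and Slc6a19 did. Of the 9 luminal genes 8 had a difference above 0, with a median of 0.11, beside 0.01 over all tested genes. Leaving out OVE replicate 3 brought 2 genes past the threshold, Slc6a4 (0.42, adjusted p = 0.0397) and Slc7a8 (0.48, adjusted p = 0.0432).

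In non-diabetic kidneys, D6 against FVB, none of the 59 genes passed the limma test, beside 0.0121% of all tested genes, and 4 had an unadjusted p under 0.05, 6.78% beside 3.82%. These 4 were Slc7a8 (log2 0.38 ± 0.14), Slc43a2 (0.30 ± 0.11), Slc7a7 (0.24 ± 0.10) and the heavy chain Slc3a2 (0.21 ± 0.09), each with an adjusted p of 0.9995. All 4 are of the basolateral list, which was chosen with earlier results of these data known. Slc7a8 stood at 12.47, 12.34 and 12.43 in D6, against 11.81, 12.08 and 12.20 in FVB. The Slc7a8 values of D6 and FVB did not overlap, nor did those of Slc43a2 and Slc3a2, while those of Slc7a7 did. In all, the 2 groups did not overlap in 4 of the 59 genes, 6.78% beside 9.79%. Slc6a20a, kept apart near Ackr2, lay between 10.40 and 10.93 on the 6 arrays with the deletion and between 9.90 and 10.47 on the 6 arrays without it, while its neighbour Slc6a20b was lower on every array with the deletion than on any without.

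The difference between the diabetes effects of the 2 genotypes passed the limma test in none of the 59 transporter genes, and in 0% of all tested genes. An unadjusted p under 0.05 was found in 4 transporter genes, Slc6a4, Slc38a1, Slc6a16 and Slc7a5, which is 6.78% beside 9.99% of all tested genes.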

How the data were processed

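Total RNA of 12 kidneys was amplified with a whole-transcript kit and hybridised to Affymetrix mouse gene arrays, per the labels' protocols. The deposited values are log2 probe-set summaries. How they were summarised and normalised is not given in the sources used here. The array medians lay close together (6.84 to 6.93), so the values were not scaled again, and every sample column was mapped. A single symbol was annotated for 21789 of 35556 probe sets, several for 1621, and 12146 stayed unnamed here. The GRCm38.p6 gene table updated the symbols by Entrez identifier (21698) or accession (3), leaving 88 as on the platform. Among the 62 members, Slc38a1 and Slc38a9 had several probe sets.

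Genes above each array's 25th percentile on at least 3 arrays were fitted with limma 3.58.1 in R 4.3.3 (group-means model over 12 arrays, eBayes, Benjamini-Hochberg adjustment over 16480 genes, threshold 0.05), in 6 comparisons. The script was tested on simulated data. Tables, motif counts and figures used Python 3.11.15, pandas 2.3.3 and matplotlib 3.10.9. Motifs were searched on both strands of the 250 bases before each start in RefSeq promoters, of which 45 of the 62 members had an entry. Besides the amino acid response core, these were GTTAAT (in 5 of the 66 member promoters and 6.43% of all promoters), TGACNNNGC (9 of 66 and 10.2%) and CACGTG (9 of 66 and 6.02%). Named were all members past the threshold in any comparison and the members of the role lists, and of other lists up to 4 genes past the threshold. The members and lists were chosen with earlier results of these data known. Alternatives changed the filter, normalisation, probe set rule, variance model, array weights and groups fitted, added the replicate number as a block, or left out each array. Nothing says that the 3 arrays of a group came from separate litters, and their number limits the precision.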

Additional observations from a re-analysis of the deposited data

Results flagged for a closer look

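In 4 transporter genes every OVE array lay on one side of the FVB mean and every OVE-D6 array on the other side of the D6 mean. In each, the diabetes effect in D6 knockouts minus that in wild types did not pass the limma test after adjustment. Slc38a1, a glutamine carrier gene, had a difference of -0.56 ± 0.17 on the log2 scale (SE, n = 3 per group, unadjusted p = 0.00633, adjusted p = 0.318), from -0.27 in OVE-D6 against D6 and 0.29 in OVE against FVB. Slc6a16 had 0.35 ± 0.11 (unadjusted p = 0.00699, adjusted p = 0.318), with group means below the olfactory level. Slc36a2 had 0.75 ± 0.45 (adjusted p = 0.635), and was highest and lowest on the FVB arrays where the fat markers were highest and lowest. Slc7a6os, the gene opposite Slc7a6, had 0.16 ± 0.11 (adjusted p = 0.698).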

How the results depend on the processing

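Across 20 alternatives the differences of the 8 called genes kept their sign. Those of the other named genes were recorded only where an alternative called them, and the stricter filter left Slc7a13 untested. The rise of Slc38a3 held in all of them in OVE against FVB and in OVE-D6 against D6, as did the fall of Slc6a4 in OVE against FVB. The count of transporter genes called in OVE against FVB, 8 as reported, ranged from 2 to 10 when 1 array was left out. It was 4, 3 and 5 without FVB replicates 1, 2 and 3, 5 and 2 without OVE replicates 1 and 2, and 5 without OVE-D6 replicate 2. With only these 2 groups fitted it was 2, Slc38a3 and Slc6a4, with 449 of all genes called, against 1200 as reported. For the averaged diabetes effect, 8 as reported, the range was 2 to 11, with 4 without D6 replicate 2 or 3, 5 without FVB replicate 2 or OVE-D6 replicate 1, 3 without OVE replicate 2 and 2 without OVE-D6 replicate 3. For OVE-D6 against OVE it was 0 to 2 and for the interaction 0 to 1, the higher value of each without OVE replicate 3. OVE-D6 against D6 called 1 gene and D6 against FVB called 0 under every alternative. Deviations of arrays from their group means had r between -0.25 and 0.12 over 18 same-numbered pairs. Over 36 differently numbered pairs r lay between -0.18 and 0.34. With 3 arrays a group these values cannot decide whether the numbers pair the mice. With the replicate number as a block the counts were 6 in OVE against FVB, 9 for the averaged effect, 1 in OVE-D6 against D6 and 0 in the other 3 comparisons. In OVE against FVB the block ended the calls of Slc7a6 (adjusted p = 0.0546), Slc38a6 (0.0599) and Slc36a4 (0.0535) and brought in Slc7a5 (0.0117), which it also called in the averaged effect (0.0273). The number of arrays limits these calls, and the 12 genes with no group mean above the olfactory level, Slc7a11 among them, and Slc7a13 are poorly measured.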
